A study of Mus musculus with 4 samples.

Results

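Potassium channel genes were described in single cardiac endothelial cells (ECs) and in the mural cells sorted with them. Members were all genes whose symbol begins with Kcn, gives a family letter and a number, and is not that of an overlapping or antisense RNA, with at least 20 unique molecular identifiers (UMIs, 1 for each captured RNA molecule) over the 4 libraries. Of 93 symbols of that form, 38 were members, out of 31253 genes in the files. The members held 34367 UMIs and the 55 symbols below the minimum held 194, with 18 symbols at 0. Kcnip2, with 21 UMIs, lay just inside the minimum and Kcnj13, with 19, just outside.

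The libraries were made from left ventricular cells of C57BL/6N mice and read with the 10X Chromium 3′ kit, which counts the 3′ end of each RNA, so that levels of different genes are compared here without division by gene length. The 2 NC libraries came from mice given a diet with 10% of calories from fat and normal water, and the 2 HFpEF libraries from mice given a diet with 60% of calories from fat and water with 0.5 mg/mL L-NAME, an inhibitor of nitric oxide synthases, both for 20 weeks. All mice carried floxed SR-B1 (Scarb1, a lipoprotein receptor), a tamoxifen-inducible Cre driven by the Cdh5 promoter, and a red fluorescent reporter in the R26 locus that Cre switches on, and they received 5 tamoxifen injections from 7 weeks of age. Fluorescent cells were sorted, so the label EC rests on the activity of that Cre. The study names mice with 1 and mice with 2 floxed Scarb1 alleles under each diet, and the labels give only the diet of a library. Spread within a diet and a difference of genotype therefore cannot be told apart. In capillary ECs Scarb1 stood at 120.5 and 48.7 CPM (a gene's UMIs in a class of 1 library, scaled by the total of that class) in NC 1 and NC 2 and at 112.1 and 54.4 CPM in HFpEF 1 and HFpEF 2. Nothing in the labels says that the libraries came from separate animals. The p-values thus measure only a spread between these libraries, which may be technical and which the fit in part shares over genes.

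The files held between 5769 and 21685 cells and between 11163876 and 48003732 UMIs per library, and 39829 cells passed the filters. The median UMIs per cell were 3644 and 4035.5 for NC and 1699 and 1577 for HFpEF, so depth per cell went with diet, and its part in the comparisons of diet was examined only by thinning cells to 1 depth. Of 41676 barcode sequences, 166 were seen in more than 1 library. Cells were clustered without the potassium channel genes, and clusters were named by marker genes. EC clusters that no other name fitted were taken as capillary. This gave 18593 capillary, 6820 artery and 2471 vein ECs, 208 pericyte-like cells and 141 smooth muscle-like cells, which were compared. Of the endothelial-sorted cells, 9414 shallow ECs led by platelet or cardiomyocyte genes and 1225 mural cells that also carried endothelial markers were kept apart. The shallow ECs were 876 of 7114 kept cells in NC 1 and 744 of 6687 in NC 2. They were 1435 of 5440 in HFpEF 1 and 6359 of 20588 in HFpEF 2, a larger share than under NC. In pericyte-like cells Cdh5 stood at 117.5 ± 65.4 CPM (SD, n = 4 libraries) against 1254 ± 111 CPM in capillary ECs, so the mural classes were not free of endothelial RNA. In capillary ECs the pericyte marker Rgs5 stood at 140.5 ± 30.5 CPM and Vtn at 0.58 ± 0.28 CPM. The mural classes also shared markers. The 3 pericyte markers summed to 11695 to 18086 CPM in smooth muscle-like sums and 16128 to 21507 CPM in pericyte-like sums. The 4 smooth muscle markers summed to 14107 to 17171 CPM and 327.2 to 965.4 CPM in the same order. The mural classes thus differed more in smooth muscle markers than in pericyte markers.

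Potassium channels let potassium leave or enter the cell and set the membrane potential. In vascular ECs a more negative potential raises the drive for calcium entry and passes through gap junctions to mural cells, and in pericytes and smooth muscle it closes voltage-gated calcium channels and relaxes the cell. The families differ in what opens them. Voltage-gated (Kv) channels open on depolarization, inward rectifiers (Kir) pass current best near the resting potential and include the ATP-sensitive channels, tandem-pore (K2P) channels leak, and calcium- or sodium-activated channels follow the ions inside the cell. Accessory subunits change how the pores gate or where they go. By family, the members were 14 Kv pore subunits with 26326 UMIs, 5 Kir subunits with 4000, 6 K2P subunits with 2258, 4 calcium- or sodium-activated subunits with 589 and 9 accessory subunits with 1194.

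Potassium channel RNA was dominated by few genes. Kcna5, a delayed rectifier of the Shaker family, held 51.8% of the member UMIs (17794), and Kcnj8, the pore subunit of the vascular ATP-sensitive channel, held 7.55% (2594). Kcnk6, a K2P subunit, held 3.55% and Kcnj15, a Kir subunit, held 2.21%. Kcna5 lies at chr6:126532551-126535412 and Kcnj8 at chr6:142564837-142571614, both on the minus strand of GRCm38 in the GENCODE annotation.

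The classes differed in how much channel RNA they held and in which genes supplied it. Member UMIs summed to 341.9, 297.5, 244.2 and 236.2 CPM in capillary ECs of NC 1, NC 2, HFpEF 1 and HFpEF 2, to between 128.2 and 203.0 CPM in artery ECs and to between 318.7 and 416.5 CPM in vein ECs. They summed to between 2054 and 2226 CPM in pericyte-like cells and to between 951.3 and 996.7 CPM in smooth muscle-like cells. Artery ECs were the lowest in each library and pericyte-like cells the highest. A mean of at least 10 CPM was reached by 2 members in capillary ECs, 2 in artery ECs, 3 in vein ECs, 8 in pericyte-like cells and 13 in smooth muscle-like cells. The mural sums were small, so that 1 UMI was worth 16.2 CPM in the smallest pericyte-like sum and 56.2 CPM in the smallest smooth muscle-like sum, both of HFpEF 1, against 0.175 CPM in capillary ECs of that library.

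**Figure D1:**
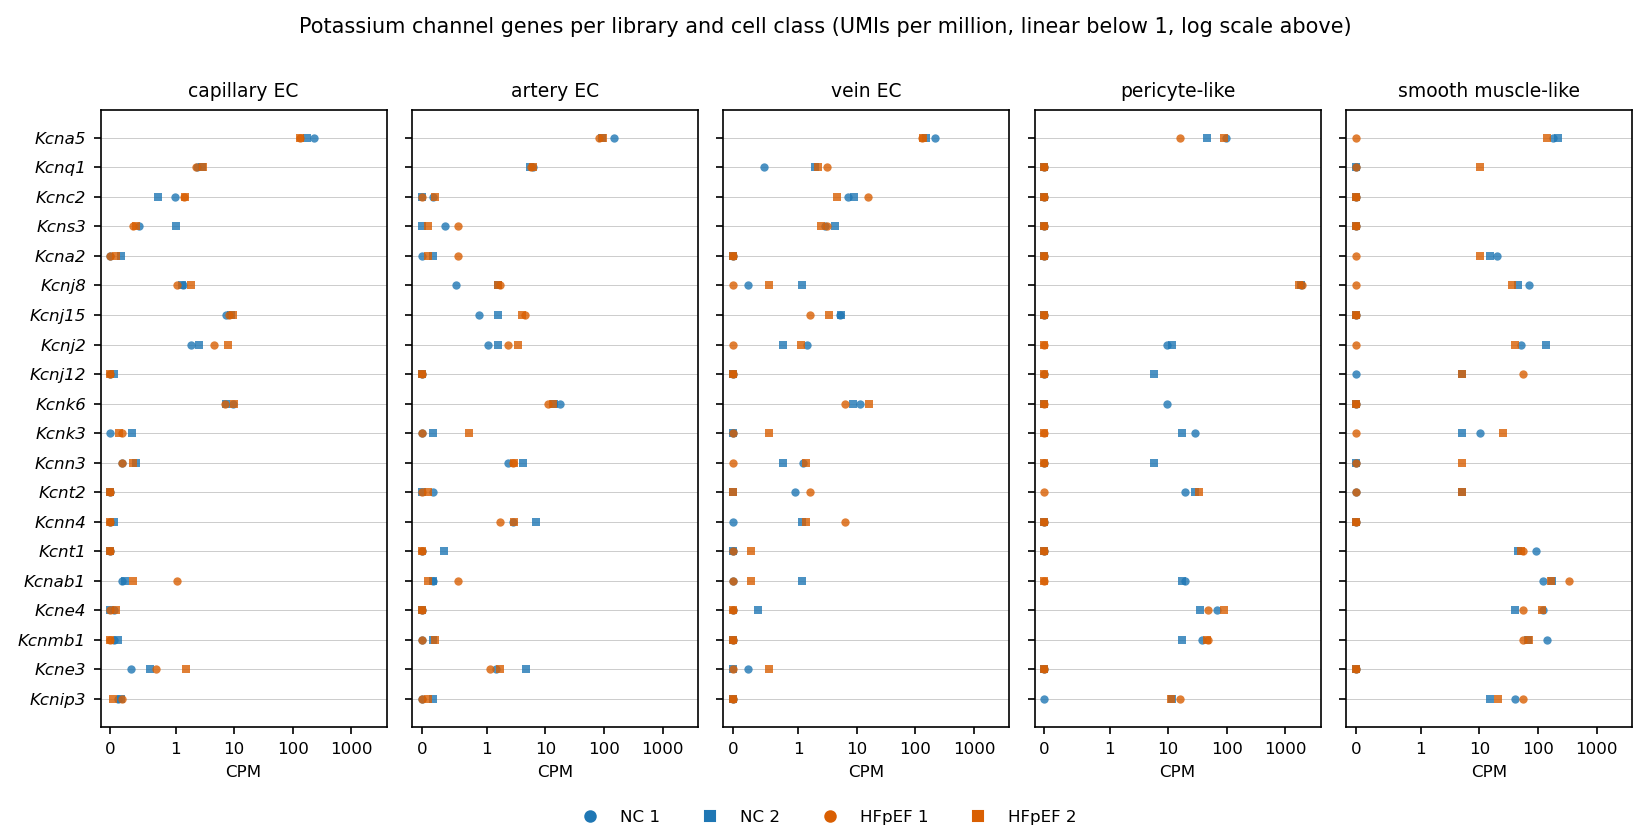
Level of 20 named potassium channel genes in each library, in CPM on an axis that is linear below 1 and logarithmic above, with 1 panel for each cell class. Blue points are NC libraries and orange points HFpEF libraries, circles number 1 and squares number 2. Kcna5 is the highest of these in capillary and artery ECs, and Kcnj8 is the highest in pericyte-like cells, with all 4 libraries between 1704 and 1896 CPM.

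Class was compared with class over 8 sums, 2 classes in each of 4 libraries, with the library as a block. A gene was called at an adjusted p under 0.05 from the quasi-likelihood fit of edgeR, adjusted over all genes tested by the Benjamini-Hochberg method. With only 8 sums, the smallest p-values of the mural classes against capillary ECs rest largely on spread shared over genes. They are not a measure of the spread of that gene alone. Each SE of an edgeR fit was computed as the size of the log2 fold change over the square root of its F statistic. The SE therefore shares that limit. For a gene near 0 UMIs in a class it can understate the counting error, which is given by the exact intervals of the ratios. A gene near 0 in a class could pass the filter on low counts only through the other class. Its direction was then in part fixed by that filter. Between artery and capillary ECs, 9 of 11 members tested were called, 5 higher and 4 lower in artery ECs, where 29.8% of 11194 genes were called, 15.3% higher and 14.5% lower. The median log2 fold change was 0.04 over the 11 members and -0.01 over all genes.

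The calcium-activated pair Kcnn3 and Kcnn4, whose channels start endothelium-dependent hyperpolarization, was among the 5 members higher in artery ECs. Kcnn4 had 87 UMIs in artery ECs and 1 in capillary ECs. At that count it could pass the filter on low counts only through the artery sums, which in part fixed its direction. Its levels in artery ECs were 2.83, 6.76, 1.69 and 2.90 CPM in NC 1, NC 2, HFpEF 1 and HFpEF 2, and the ratio of the pooled levels was 236, with a 95% exact interval from 41.3 to 9432 for counting error only. Kcnn3 stood at 2.30, 4.06, 2.81 and 2.90 CPM in artery ECs and at 0.185, 0.390, 0.175 and 0.354 CPM in capillary ECs. The groups did not overlap for either gene, and the log2 fold changes were 7.09 ± 0.50 (SE, adjusted p = 1.29e-07, edgeR) for Kcnn4 and 3.22 ± 0.32 (adjusted p = 3.63e-06, edgeR) for Kcnn3. Both genes were thus low in absolute terms, at a few CPM where Kcna5 in the same cells stood at 104.3 ± 30.6 CPM.

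The 200 bases before the start of Kcnn3 (chr3:89519964-89520163, plus strand) and of Kcnn4 (chr7:24370063-24370262, plus strand), the calcium-activated genes among those higher in artery ECs, are shown from RefSeq on GRCm38.p6. Capitals mark CACGTG, the letters of an E-box, and GGGCGG, the letters of a GC box, searched on both strands. The former occurs in 5.26% and the latter in 31.0% of 32817 promoter windows of this length, and neither overlaps the other here.
Kcnn3: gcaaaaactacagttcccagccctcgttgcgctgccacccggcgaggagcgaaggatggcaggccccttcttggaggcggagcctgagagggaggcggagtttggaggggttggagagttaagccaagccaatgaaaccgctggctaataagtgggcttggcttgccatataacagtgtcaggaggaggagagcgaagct
Kcnn4: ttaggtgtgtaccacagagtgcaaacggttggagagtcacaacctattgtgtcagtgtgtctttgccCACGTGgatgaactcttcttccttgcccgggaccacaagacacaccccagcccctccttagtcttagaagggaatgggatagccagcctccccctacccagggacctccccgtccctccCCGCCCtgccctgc
Kcnn4 held 1 CACGTG, 133 bases before the start, and 1 GC box, 14 bases before it, while neither word was found in the window of Kcnn3. The windows held 9 CpG pairs for Kcnn3 and 5 for Kcnn4, at 58.5% G and C in each.

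The Kv subunit Kcnq1 was also higher in artery ECs, at 6.19, 5.41, 5.62 and 6.21 CPM against 2.35, 2.79, 2.27 and 2.92 CPM in capillary ECs (log2 fold change 1.09 ± 0.17, adjusted p = 0.000286, edgeR). Kcne3, an accessory subunit that can join Kcnq1, stood at 1.42, 4.57, 1.12 and 1.66 CPM against 0.309, 0.613, 0.699 and 1.505 CPM. Its groups overlapped, and its log2 fold change of 1.35 ± 0.44 (adjusted p = 0.0341, edgeR) fell to 0.58 (adjusted p = 0.418) without NC 2, and it was also not called without NC 1 (adjusted p = 0.106) or without HFpEF 1 (adjusted p = 0.0718), nor by DESeq2 (adjusted p = 0.0657) or without the library block (adjusted p = 0.1202). With hemoglobin-rich cells kept the Kcne3 change was 2.08. Kcnk6 was 1.62 times as high in artery ECs (13.9 ± 2.54 against 8.46 ± 1.49 CPM, SD, n = 4, adjusted p = 0.00105, edgeR).

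Among the genes higher in capillary ECs was Kcna5. It stood at 232.7, 176.5, 132.5 and 132.4 CPM there and at 149.4, 92.7, 80.9 and 94.4 CPM in artery ECs, lower in each of the 4 libraries, at -0.75 ± 0.07 on the log2 scale (adjusted p = 1.08e-06, edgeR). The Kir subunit Kcnj15 stood at 7.17, 8.75, 8.04 and 9.65 CPM in capillary ECs and at 0.885, 1.52, 4.50 and 3.93 CPM in artery ECs, without overlap (-1.83 ± 0.24 on the log2 scale, adjusted p = 5.43e-05, edgeR). Kcnj2, the strong inward rectifier that senses extracellular potassium in capillaries, was lower by 1.09 ± 0.21 on the log2 scale (-1.09, adjusted p = 0.00118, edgeR), a call that was lost without HFpEF 2 (-0.87, adjusted p = 0.0608), with hemoglobin-rich cells kept (-0.59, adjusted p = 0.0987) and without the library block (-1.02, adjusted p = 0.261). With hemoglobin-rich cells kept the Kcnj15 change was -2.42 (edgeR).

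**Figure D2:**
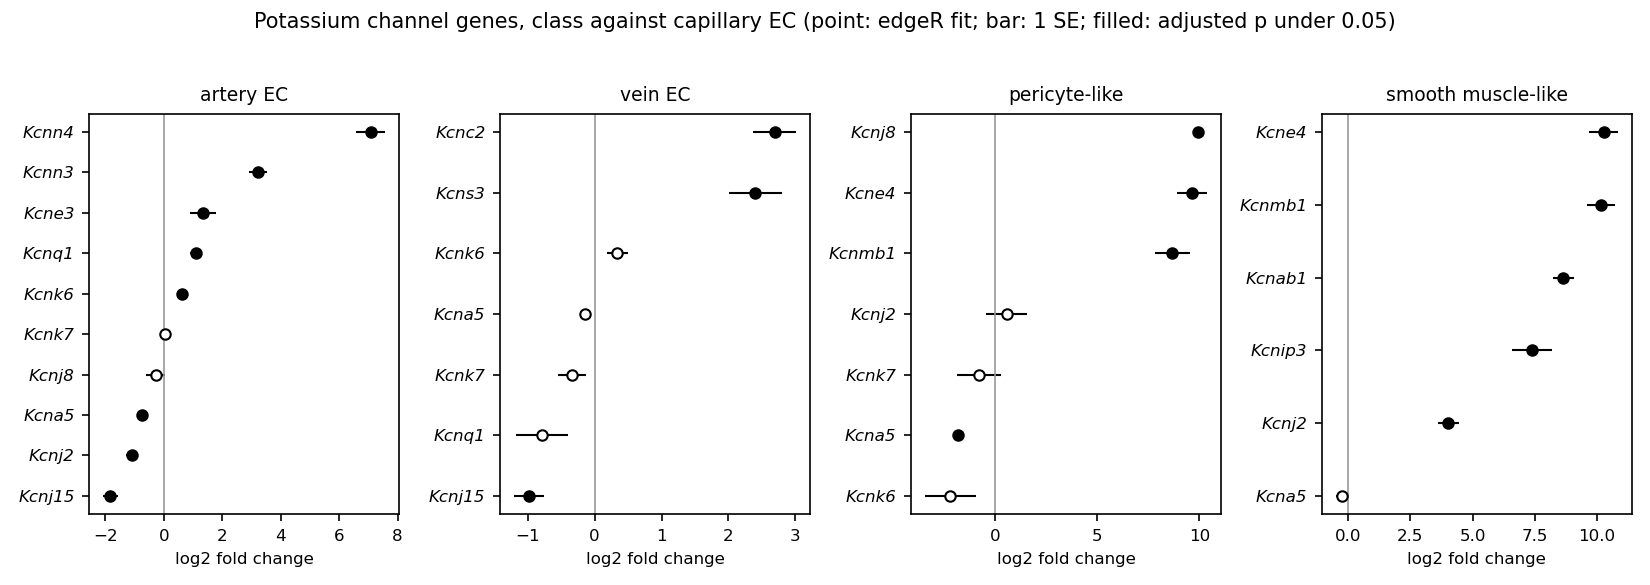
Log2 fold change of potassium channel genes in 4 cell classes against capillary ECs from the edgeR fit, with bars of 1 SE. Filled points had an adjusted p under 0.05, and genes with 0 UMIs in one of the classes are left out. Kcnn4 is highest in artery ECs, Kcnc2 in vein ECs and Kcnj8 in pericyte-like cells, and Kcna5 lies to the left in artery and pericyte-like cells.

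In vein against capillary ECs, 4 of 8 members tested were called, 3 higher and 1 lower in vein ECs, where 21.8% of 10650 genes were called, 12.0% higher and 9.84% lower. The median log2 fold change was 0.10 over the members and -0.01 over all genes. Kcns3 and Kcnc2, of the Kv family, were among the higher genes. Kcns3, a subunit that forms no channel alone and modifies other Kv channels, stood at 2.84, 4.24, 3.16 and 2.48 CPM against 0.432, 1.004, 0.350 and 0.398 CPM (2.405 ± 0.396 on the log2 scale, adjusted p = 8.94e-05, edgeR). Kcnc2, a fast Kv subunit known best from neurons, stood at 7.10, 8.87, 15.8 and 4.68 CPM against 0.989, 0.725, 1.399 and 1.461 CPM (2.69 ± 0.32 on the log2 scale, adjusted p = 1.61e-06, edgeR). Neither gene overlapped between the classes. Kcnj15 was lower in vein ECs, at -0.98 ± 0.23 on the log2 scale (adjusted p = 0.00283, edgeR), and at -1.94 with hemoglobin-rich cells kept. The Kcns3 change was 3.28 at resolution 1.2. Kcna5, at 157.0 ± 38.1 CPM (SD, n = 4), was not called between vein and capillary ECs (-0.14 ± 0.06, adjusted p = 0.110, edgeR).

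The 10 clusters that made up the 3 EC classes were compared for Kcna5 and Kcnj15. Pooled over libraries, Kcna5 in the 7 capillary clusters lay between 129.4 and 203.1 CPM, lowest in the one led by Gm8797, Cxcl2 and Tnf and highest in the one led by Timp4, Adh1 and Aqp1. Of the artery clusters, the one led by Fbln5, Mgp and Clu held Kcna5 at 125.4, 78.9, 60.1 and 61.7 CPM and Kcnj15 at 1.05, 1.34, 1.13 and 3.33 CPM. The artery cluster led by Hey1, Alox12 and Cox4i2 held Kcna5 at 199.6, 135.6, 101.5 and 126.7 CPM, and Kcnj15 at 0.548, 2.09, 7.81 and 4.53 CPM. Its Kcna5 level was below that of the capillary class in each library. Its pooled level of 140.4 CPM was within the range of the capillary clusters, but pooling mixes the diets in unlike shares. The capillary cluster led by Gm8797, at the low end, held 98 and 106 cells of NC 1 and NC 2 and 810 and 2624 of HFpEF 1 and HFpEF 2. Pooled over libraries, Kcnj15 lay between 7.22 and 11.7 CPM in the capillary clusters and at 1.93 and 3.66 CPM in the artery clusters led by Fbln5 and by Hey1, below each of them. These values are a description, since clusters within a class were not tested against each other.

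**Figure D3:**
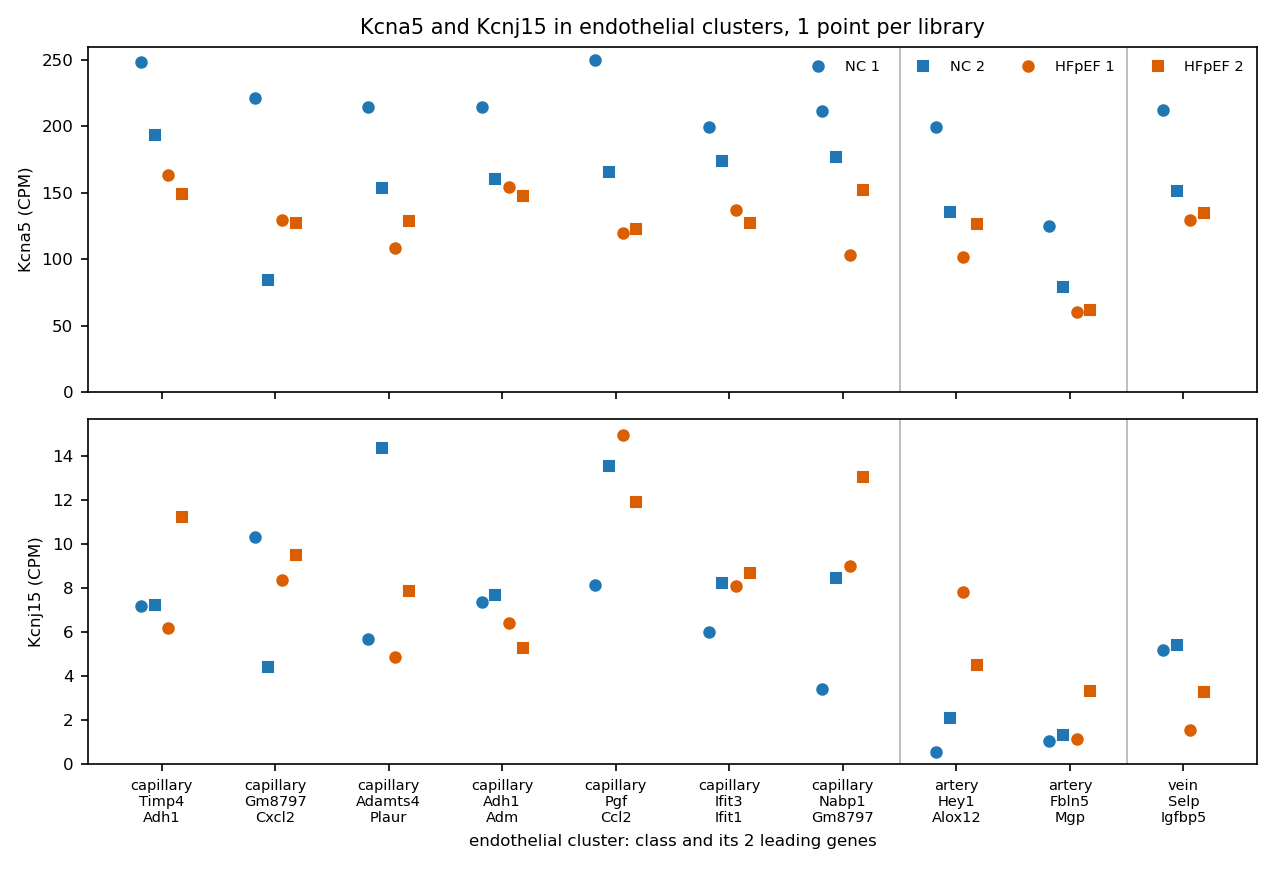
Kcna5 (top) and Kcnj15 (bottom) in CPM in 10 endothelial clusters, each named by its class and its 2 leading genes, with 1 point for each library. Pooled over libraries, both genes are lowest in the artery cluster led by Fbln5, and Kcnj15 is also low in the one led by Hey1, where the libraries lie between 0.548 and 7.81 CPM.

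Pericyte-like cells held the genes of the vascular ATP-sensitive channel at a high level. Between pericyte-like cells and capillary ECs, 7 of 10 members tested were called, 4 higher and 3 lower in pericyte-like cells, where 29.4% of 10107 genes were called, 11.3% higher and 18.1% lower. The median log2 fold change was -0.09 over the members, or 0.14 with Kcnj15 at its bound (below), and -0.19 over all genes. Kcnj8 stood at 1871, 1815, 1896 and 1704 CPM in pericyte-like cells and at 1.36, 1.28, 1.05 and 1.86 CPM in capillary ECs. The ratio of the pooled levels was 1220, with a 95% exact interval from 982.8 to 1530, and the log2 fold change was 9.92 ± 0.20 (SE, edgeR). It was 8.14 with a per-cell marker gate in place of clusters (at least 2 markers of the class detected, with more UMIs than those of the other mural class or of ECs) and 7.94 with the mixed mural clusters added, so that the size of the difference depended on which cells were taken as pericyte-like. Kcnj8 was also 5.27 ± 0.22 higher on the log2 scale than in smooth muscle-like cells (adjusted p = 3.45e-15, edgeR), where it stood at 70.5, 45.8, 0 and 35.6 CPM. That difference was 6.32 with the gate, 4.16 with the mixed clusters and 4.60 with thinned cells.

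Abcc9 encodes the sulfonylurea receptor that surrounds the Kcnj8 pore, and it stood at 1746, 1826, 1653 and 1557 CPM in pericyte-like cells against 1.98, 2.79, 4.72 and 1.59 CPM in capillary ECs (log2 fold change 9.08 ± 0.19, edgeR). It was 4.06 ± 0.21 higher on the log2 scale than in smooth muscle-like cells (adjusted p = 5.83e-14, edgeR). Kcnj8 and Abcc9 lie on the minus strand of chromosome 6, and the 200 bases before each start (chr6:142571615-142571814 and chr6:142702275-142702474, minus strand) are shown from RefSeq on GRCm38.p6 as the promoters of the pair that was high together, with the same capitals as above. Abcc9 was among the genes that clustering could use, and Kcnj8 was not.
Kcnj8: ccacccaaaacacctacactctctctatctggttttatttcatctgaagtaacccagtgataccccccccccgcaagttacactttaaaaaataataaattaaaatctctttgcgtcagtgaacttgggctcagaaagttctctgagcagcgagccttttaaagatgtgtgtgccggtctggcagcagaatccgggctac
Abcc9: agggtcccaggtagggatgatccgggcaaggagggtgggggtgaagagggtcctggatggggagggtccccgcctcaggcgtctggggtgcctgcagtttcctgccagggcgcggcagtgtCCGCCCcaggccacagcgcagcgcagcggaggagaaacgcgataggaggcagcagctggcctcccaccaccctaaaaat
The window of Kcnj8 was 45.0% G and C with 5 CpG pairs and held neither word, and that of Abcc9 was 67.5% G and C with 11 CpG pairs and held 1 GC box, 79 bases before the start.

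The genes higher in pericyte-like cells also included 2 accessory subunits. Each had 3 UMIs in capillary ECs. At such counts they could pass the filter on low counts only through the pericyte-like sums, which in part fixed their direction. Kcne4, a single-span accessory subunit, stood at 67.2, 34.9, 48.6 and 90.3 CPM, and its ratio over the 3 UMIs of capillary ECs was 1171, with a 95% interval from 355.7 to 6076. Kcnmb1, the smooth muscle accessory subunit of the large-conductance calcium-activated channel, stood at 38.4, 17.4, 48.6 and 45.1 CPM, with a ratio of 683.2 over 3 UMIs of capillary ECs and an interval from 190.7 to 3708. The pore gene of that channel, Kcnma1, had 6 UMIs in all libraries together and was no member.

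On the other side, Kcna5 was lower in pericyte-like cells. It stood at 96.0, 46.5, 16.2 and 90.3 CPM, with 27 UMIs, and its log2 fold change was -1.79 ± 0.26 (adjusted p = 1.54e-10, edgeR), or -0.98 with the gate and -0.94 with the mixed clusters. All 5 endothelial markers had UMIs in these sums, at a summed level between 110.5 and 623.7 CPM against 4388 to 4985 CPM in capillary ECs, with Cdh5 at 182.3, 29.1, 145.9 and 112.8 CPM, and the part of endothelial RNA in the Kcna5 level was not tested. Kcnj15 had 0 UMIs in pericyte-like cells and was at least 1.22-fold lower, taking 3 UMIs over the 4 libraries as the floor. Its call (adjusted p = 0.0308, edgeR) was lost without any 1 of the libraries NC 1, NC 2, HFpEF 1 and HFpEF 2 (adjusted p between 0.0635 and 0.166).

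Smooth muscle-like cells had accessory subunits and Kcnj2 at levels far above those of capillary ECs. Against capillary ECs, 9 of 11 members tested were called, 7 higher and 2 lower in smooth muscle-like cells, where 29.7% of 10015 genes were called, 12.2% higher and 17.5% lower. The median log2 fold change was 4.02 over the members, also with the 4 genes at 0 UMIs in a class at their bound, and -0.20 over all genes. The number called fell to 5 without HFpEF 2. All 4 accessory subunits tested were higher. These were Kcnab1, Kcne4, Kcnmb1 and Kcnip3, with 21, 3, 3 and 7 UMIs in capillary ECs. At such counts they could pass the filter on low counts only through the smooth muscle-like sums, which in part fixed their direction. The median of 4.02 over the members shares that limit, and accessory members that were not tested are not covered. Kcnab1, a cytoplasmic beta subunit of Shaker-type Kv channels, stood at 120.8, 173.0, 337.3 and 163.0 CPM against 0.185, 0.223, 1.049 and 0.354 CPM (8.66 ± 0.42 on the log2 scale, adjusted p = 4.20e-93, edgeR). Kcne4 stood at 83.7 ± 41.2 CPM and Kcnmb1 at 83.7 ± 38.7 CPM (SD, n = 4). Kcnip3, a calcium-binding protein that can join Kv channels, stood at 40.3, 15.3, 56.2 and 20.4 CPM against at most 0.175 CPM in capillary ECs.

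Among the pores, Kcnj2 was 17.7 times as high in smooth muscle-like cells as in capillary ECs (40 UMIs, 95% exact interval from 12.4 to 24.8; 4.02 ± 0.43 on the log2 scale, adjusted p = 1.27e-19, edgeR). Of those UMIs 27 came from NC 2, and the log2 fold change was 2.78 without NC 2 (adjusted p = 0.000352, edgeR) and 4.98 without HFpEF 2. It stood at 50.3, 137.4, 0 and 40.7 CPM in smooth muscle-like cells, where the 0 of HFpEF 1 rests on 17786 UMIs and 3 UMIs would be 168.7 CPM. Kcnt1, a sodium-activated channel subunit, stood at 90.6, 45.8, 56.2 and 50.9 CPM and had 0 UMIs in capillary ECs. With 3 UMIs as the floor there it was 1183-fold higher, without the counting error of its 29 smooth muscle-like UMIs. It too could pass the filter on low counts only through the smooth muscle-like sums. Kcna5 stood at 181.2, 218.8, 0 and 142.6 CPM and was not called (-0.24 ± 0.26, adjusted p = 0.557, edgeR), while Cdh5 in these sums was 90.6, 25.4, 0 and 35.6 CPM. Kcnk6 and Kcnj15 had 0 UMIs in smooth muscle-like cells and were at least 1.498-fold and 1.462-fold lower, and both calls were lost without NC 1, without NC 2, without HFpEF 2 or without cells carrying markers of both lineages. The Kcnk6 change was -0.32 (adjusted p = 0.762, edgeR) with the gate and -0.54 (adjusted p = 0.511) with the mixed clusters, both smaller than that bound and uncalled. For Kcnj15 they were -3.09 and -3.525, both called.

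Directly between the mural classes, 2 of 2 members tested were called, where 27.8% of 1730 genes were called, 13.2% higher and 14.6% lower in pericyte-like cells. Kcnj8 was the higher one (above) and Kcnab1 the lower, at 19.2, 17.4, 0 and 0 CPM in pericyte-like cells, 3.79 lower than in smooth muscle-like cells on the log2 scale (-3.79 ± 0.53, adjusted p = 3.88e-06, edgeR; -2.42 with the gate and -2.79 with the mixed clusters). The number called rose to 4 without NC 1 or without HFpEF 1. Kcnk3, a K2P subunit, stood at 28.8, 17.4, 0 and 0 CPM in pericyte-like cells and at 10.1, 5.09, 0 and 25.5 CPM in smooth muscle-like cells. Kcnt2, a sodium-activated subunit, stood at 19.2, 29.1, 0 and 33.8 CPM in pericyte-like cells. Kcna2, a Shaker-family pore, reached 11.4 CPM and the Kir subunit Kcnj12 16.6 CPM as means in smooth muscle-like cells, on 7 and 3 UMIs. At these depths the zeros of single libraries are not evidence that a gene was absent.

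HFpEF was then compared with NC within each class, over 2 libraries against 2, with diet as the only term. No member was called by this edgeR fit in any of the 5 classes. Under some alternatives, among them a replicate block, Kcna5 and Kcnj2 were called in capillary ECs (below). In capillary ECs edgeR called 0 of 15 members tested, where 0.298% of 12086 genes were called. At an unadjusted p under 0.05 it had 4 members, Kcnj2, Kcna5, Kcne3 and Kcnk4, the last of which is named here after its values were seen, and DESeq2 called 1, Kcna5. Here and below, the shares of all genes at that unadjusted level and of all genes called by DESeq2 are not given. Such counts are therefore not read as an excess of members. The log2 fold change was positive for 10 of the 15 members and for 49.5% of all genes, with a median of 0.20 over the members and of -0.003 over all genes.

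Kcna5 stood at 232.7 and 176.5 CPM in capillary ECs of NC 1 and NC 2 and at 132.5 and 132.4 CPM in those of HFpEF 1 and HFpEF 2, 204.6 ± 39.8 against 132.5 ± 0.053 CPM (SD, n = 2). Both HFpEF libraries were below both NC libraries. The log2 fold change was -0.60 ± 0.15, with an adjusted p of 0.0936 in edgeR, 0.0382 with a replicate block, 0.0107 in DESeq2, 0.0375 with each cell thinned to 1000 UMIs, and 0.000132 without the filter on low counts. NC 1 was the high library, and without it the change was -0.38 (adjusted p = 0.239, edgeR), while without NC 2 it was -0.80 (adjusted p = 0.0464). Kcna5 lay in the same direction in vein ECs, at 212.4 and 151.5 against 129.4 and 134.9 CPM (-0.47 ± 0.17, adjusted p = 0.307, edgeR), and in artery ECs, at 149.4 and 92.7 against 80.9 and 94.4 CPM, where the groups overlapped (-0.43 ± 0.20, adjusted p = 0.416, edgeR). In artery ECs it was called only without NC 2 (-0.74, adjusted p = 0.0311, edgeR).

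Kcnj2 stood at 1.85 and 2.51 CPM in capillary ECs of NC 1 and NC 2 and at 4.55 and 7.75 CPM in those of HFpEF 1 and HFpEF 2, from 30, 45, 26 and 175 UMIs. Both HFpEF libraries were above both NC libraries. The log2 fold change was 1.59 ± 0.30, with an adjusted p of 0.0705 in edgeR, 0.01004 with a replicate block, 0.0369 with thinned cells, and 4.12e-07 without the filter on low counts, and DESeq2 gave no adjusted p. Without HFpEF 1 the change was 1.82 (adjusted p = 0.00607, edgeR) and without HFpEF 2 it was 1.09 (adjusted p = 0.267). In artery ECs Kcnj2 stood at 1.06 and 1.52 against 2.25 and 3.42 CPM (1.26 ± 0.47, adjusted p = 0.333, edgeR). In vein ECs it had 12 UMIs in all and was not tested.

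The capillary class was made of different clusters under the diets. Of capillary ECs in NC 1 and NC 2, 44.8% and 50.6% lay in the cluster led by Timp4, Adh1 and Aqp1, against 17.7% and 13.2% in HFpEF 1 and HFpEF 2, and the cluster led by Gm8797, Cxcl2 and Tnf held 2.59% and 2.84% against 31.2% and 30.9%. The latter had a median of 1391 UMIs per cell and the former 3450. Within the 7 capillary clusters taken singly, Kcna5 was lower in both HFpEF libraries than in both NC libraries in 6, and the exception was the cluster led by Gm8797, Cxcl2 and Tnf, with 221.6 and 84.3 against 129.9 and 127.2 CPM. In the cluster led by Timp4, Adh1 and Aqp1 the values were 248.9 and 193.9 against 163.7 and 148.8 CPM. Kcnj2 was higher in both HFpEF libraries in 5 of the 7, among them the cluster led by Timp4, Adh1 and Aqp1, at 0.75 and 1.57 against 8.85 and 8.87 CPM. In the remaining 2 clusters, led by Pgf, Ccl2 and Apln and by Nabp1, Gm8797 and Caprin2, the groups overlapped. These counts were not tested, since the clusters share the libraries and split cells whose class sums already did not overlap for either gene. Both genes were shown for their class values. The share of all genes without overlap in these clusters is not given, so the counts are not read as an excess. Marker sums moved with diet in the same cells. In capillary ECs of NC 1, NC 2, HFpEF 1 and HFpEF 2 the 4 capillary markers summed to 7810, 7133, 4998 and 4667 CPM and the 3 activation markers to 98.5, 87.0, 167.3 and 297.1 CPM. In vein ECs the capillary markers summed to 5756 and 4997 CPM under NC against 3041 and 3174 CPM under HFpEF. Their part in the Kcna5 and Kcnj2 differences was not tested.

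**Figure D4:**
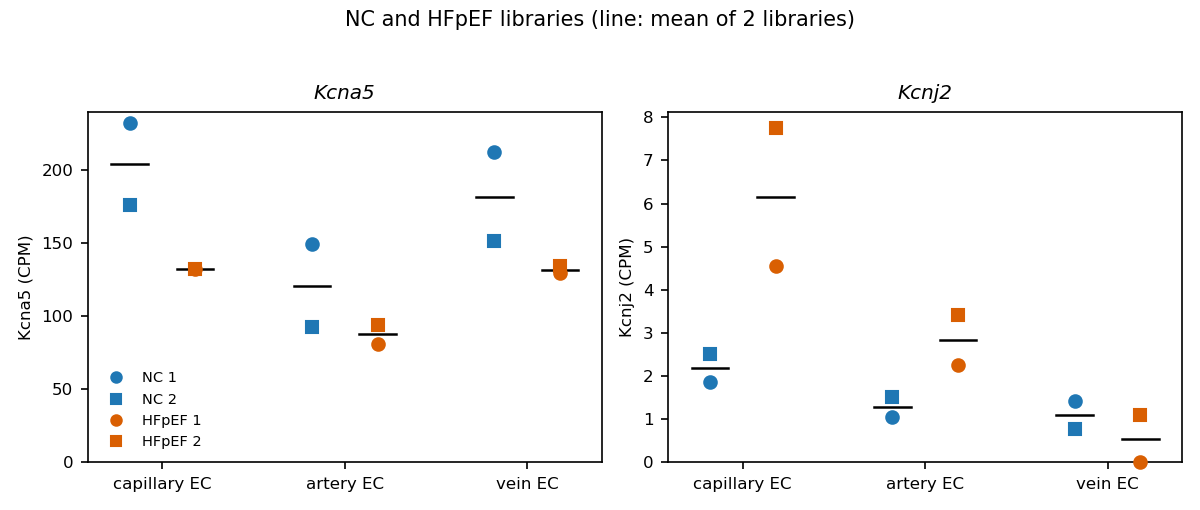
Kcna5 (left) and Kcnj2 (right) in CPM in 3 EC classes, 1 point for each library, blue for NC and orange for HFpEF, with a line at the mean of 2 libraries. In capillary ECs the HFpEF libraries lie at 132.5 and 132.4 CPM for Kcna5, below both NC libraries, and at 4.55 and 7.75 CPM for Kcnj2, above both. Neither gene had an adjusted p under 0.05 in the edgeR fit with diet as the only term.

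The remaining pair with an unadjusted p under 0.05 in capillary ECs was low. Kcne3 stood at 0.309 and 0.613 against 0.699 and 1.505 CPM (1.43 ± 0.52 on the log2 scale, adjusted p = 0.183, edgeR) and Kcnk4, a mechanosensitive K2P subunit, at 0.432 and 0.557 against 1.748 and 0.929 CPM (1.25 ± 0.51, adjusted p = 0.218, edgeR). Kcnk6, Kcnq1 and Kcnj15 had log2 fold changes of 0.05 ± 0.22, 0.09 ± 0.28 and 0.20 ± 0.19.

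In artery ECs edgeR called 0 of 9 members tested and DESeq2 0, where 0.119% of 10920 genes were called, and 3 members had an unadjusted p under 0.05, Kcnk7, Kcnj15 and Kcnj2. Kcnk7, a K2P subunit named here after its values were seen, stood at 9.91 and 7.61 against 3.37 and 3.93 CPM (-1.19 ± 0.31, adjusted p = 0.195, edgeR). Kcnj15 stood at 0.885 and 1.52 against 4.50 and 3.93 CPM (1.74 ± 0.46, adjusted p = 0.195, edgeR; 0.0368 without the filter on low counts). The groups did not overlap for either gene. The calcium-activated pair gave -0.87 ± 0.48 for Kcnn4 (adjusted p = 0.497, edgeR) and -0.15 ± 0.43 for Kcnn3 (adjusted p = 0.923, edgeR). The median was -0.15 over the members and -0.002 over all genes.

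In vein ECs edgeR called 0 of 6 members tested and DESeq2 0, where 0.865% of 10173 genes were called, and 1 member, Kcna5, had an unadjusted p under 0.05. The median was -0.33 over the members and 6.15e-05 over all genes. In pericyte-like cells only Kcnj8 had enough UMIs to be tested. There edgeR called 0 of 1 member and DESeq2 0, where 0.0% of 1766 genes were called, and 0 members had an unadjusted p under 0.05. Kcnj8 stood at 1871 and 1815 CPM under NC and at 1896 and 1704 CPM under HFpEF, 1843 ± 40.0 against 1800 ± 136 CPM (SD, n = 2), with a log2 fold change of -0.01 ± 0.19 (adjusted p = 0.998, edgeR).

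In smooth muscle-like cells edgeR called 0 of 5 members tested and DESeq2 0, where 0.0792% of 2524 genes were called. At an unadjusted p under 0.05 there was 1 member. Kcnab1, Kcne4 and Kcnmb1 had log2 fold changes of 0.28 ± 0.41, 0.64 ± 0.56 and -0.43 ± 0.58. The median was 0.28 over the members and -0.03 over all genes.

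**Figure D5:**
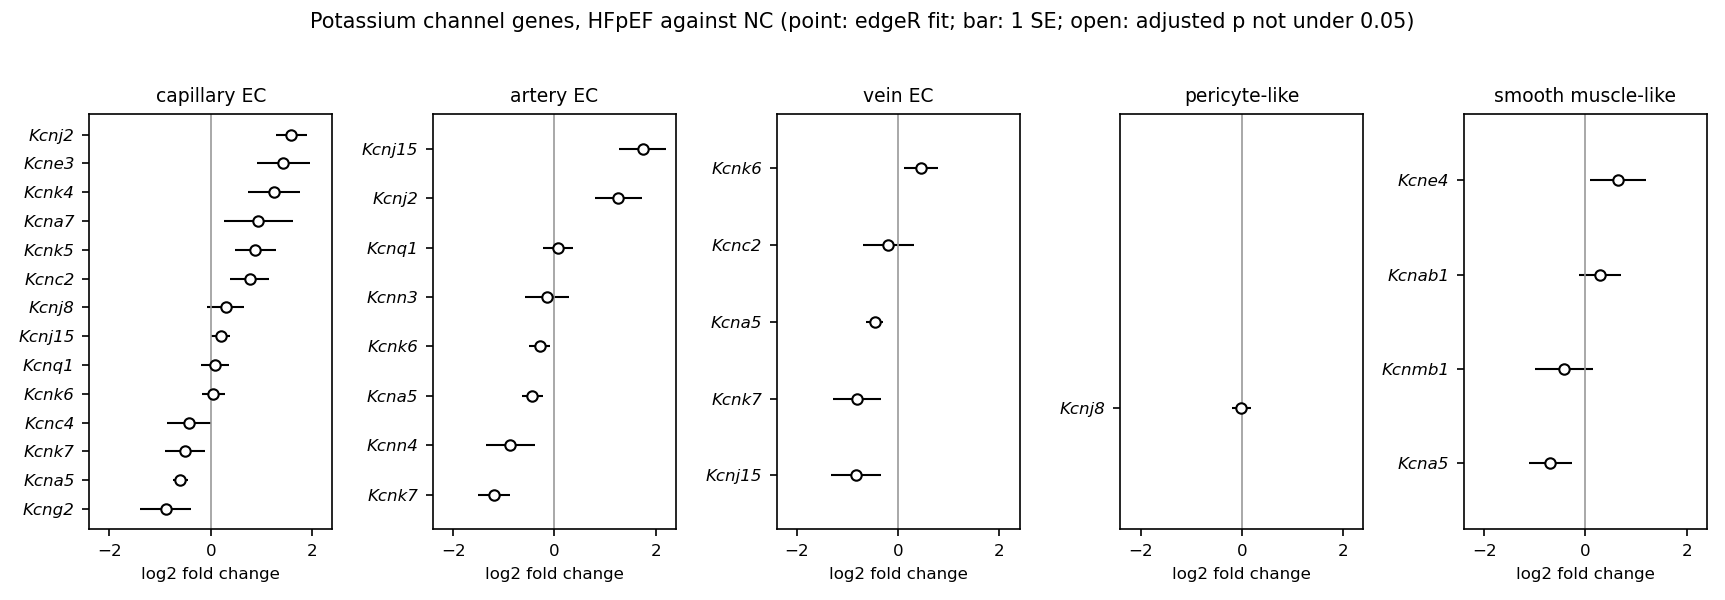
Log2 fold change of potassium channel genes tested, HFpEF against NC, in 5 cell classes from the edgeR fit, with bars of 1 SE and open points for an adjusted p not under 0.05. All points are open, and Kcnj2 in capillary ECs (1.59) and Kcnj15 in artery ECs (1.74) are farthest to the right.

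Whether the diet effect differed between classes was tested as an interaction. For artery against capillary ECs edgeR called 0 of 16 members and DESeq2 0, where 0.981% of 11625 genes were called, and 3 members had an unadjusted p under 0.05. Among these were Kcne3 (-2.48 ± 0.66, adjusted p = 0.0802, edgeR) and Kcnj15 (1.48 ± 0.43, adjusted p = 0.119). Kcne3 was called under 3 of 15 alternatives and Kcnj15 under 1 of 16. For Kcne3 these included the fit without the low-count filter (-2.47, adjusted p = 0.0398, edgeR). They also included the fit without cells carrying markers of both lineages (-2.89, adjusted p = 0.0356, edgeR). Without HFpEF 1 the Kcne3 value was -2.55. Kcnj15 was called without the low-count filter (1.49, adjusted p = 0.0444, edgeR). For pericyte-like cells against capillary ECs edgeR called 0 of 12 members and DESeq2 0, where 0.0275% of 10922 genes were called, and 1 member had an unadjusted p under 0.05.

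For smooth muscle-like cells against capillary ECs edgeR called 1 of 14 members, where 0.0639% of 10961 genes were called. This was Kcnj2, whose diet effect was lower in smooth muscle-like cells by 3.19 ± 0.73 on the log2 scale (-3.19, adjusted p = 0.0304, edgeR). It stood at 50.3 and 137.4 against 0 and 40.7 CPM in smooth muscle-like cells and at 1.85 and 2.51 against 4.55 and 7.75 CPM in capillary ECs. The groups thus lay in opposite order in the classes. The smooth muscle-like side rested on 5, 27, 0 and 8 UMIs from 19, 37, 9 and 76 cells. The call was lost without any 1 library, with an adjusted p of 0.125 without NC 1, 1.00 without NC 2, 0.146 without HFpEF 1 and 0.967 without HFpEF 2, and DESeq2 did not make it (adjusted p = 1.00).

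Genes of the same pathways were taken from a list of 28, which holds partner subunits, pumps, calcium channels and release channels, connexins and related genes, and includes Gja4 and Gja5, which also served as artery markers. Against capillary ECs, 8 of 16 tested were higher and 2 lower in artery ECs, 8 of 13 higher and 2 lower in vein ECs, 9 of 19 higher and 7 lower in pericyte-like cells, and 8 of 18 higher and 6 lower in smooth muscle-like cells. Over all genes tested, 15.3% were higher and 14.5% lower in artery ECs, 12.0% and 9.84% in vein ECs, 11.3% and 18.1% in pericyte-like cells, and 12.2% and 17.5% in smooth muscle-like cells. Gja4 and Gja5 are among the 8 higher in artery ECs, where their calls follow from the naming of that class. Trpv4, a calcium entry channel upstream of Kcnn3 and Kcnn4 in ECs, was higher in artery ECs (2.54 ± 0.10, adjusted p = 5.59e-10, edgeR) and in vein ECs (1.91 ± 0.12, adjusted p = 1.31e-10, edgeR). Ano1, a calcium-activated chloride channel, was higher in artery ECs (5.20 ± 0.48), in pericyte-like cells (10.63 ± 0.51) and in smooth muscle-like cells (11.64 ± 0.37) on the log2 scale. Cacna1c, the L-type calcium channel pore that potassium channels restrain, was higher in pericyte-like cells (7.95 ± 0.69) and in smooth muscle-like cells (8.90 ± 0.51). Gja4, a connexin that links ECs and mural cells, stood at 638.6 CPM in pericyte-like cells, 411.6 CPM in smooth muscle-like cells and 113.5 CPM in artery ECs as means, against 2.86 CPM in capillary ECs. Of the 16, 16, 12, 7 and 10 list genes tested for diet in capillary, artery and vein ECs, pericyte-like and smooth muscle-like cells, edgeR called 0, where the share over all genes was 0.298%, 0.119%, 0.865%, 0.0% and 0.0792%, so that a count of 0 is not particular to the list.

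The other members were low or lay outside the 5 classes. Of the 38 members, 26 passed the filter on low counts in at least 1 comparison and 12 in none, namely Kcnab2, Kcna1, Kcnt2, Kcnk2, Kcnd3, Kcnd1, Kcnh2, Kcnj14, Kcnip2, Kcnmb4, Kcna2 and Kcnj12. Of the 39 UMIs of Kcna1 in kept cells, 38 fell in clusters of other cells, and Kcnt2 had 67 of its 152 UMIs in the 216 endocardial ECs, at 48.2, 93.8, 81.3 and 48.9 CPM. Kcnj11, the pore of the ATP-sensitive channel of other tissues, had 11 UMIs and Kcnq5 had 2, so that neither could be described. Kcnc4, Kcng2, Kcnk5, Kcna7 and Kcnab3 were tested in at least 1 comparison and were not called.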

How the data were processed

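The files hold single-cell UMI counts of 4 libraries, 2 for each diet, labelled as endothelial cells of mouse heart. Per the study's methods and processing notes, the authors trimmed reads with fastp, made the deposited counts with Cell Ranger 5.0.1 on mm10 with Ensembl genes, and equalized read depth between samples when they aggregated them. The counts are not divided by library size. Cells with over 200 genes and under 20% mitochondrial UMIs were kept, as in the study, and cells with 1% or more hemoglobin UMIs were left out. This kept 7114 and 6687 cells of NC 1 and NC 2 and 5440 and 20588 of HFpEF 1 and HFpEF 2.

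Counts were scaled to 10000 per cell and logged. Clustering (igraph 0.11.9) used 2000 variable genes without the potassium channel genes, mitochondrial genes and Scarb1, 10 components, 20 neighbours and resolution 0.8. A cluster was named when its markers exceeded the median cluster by 3 on the log2 scale, or by 1.5 for artery and vein. EC clusters that met no such limit and were not shallow were taken as capillary, with no limit on capillary markers. After the clusters were seen, the limit for artery and vein was lowered from 2, and shallow clusters were kept out of the capillary class. Mural clusters whose endothelial markers were not 2 below the median cluster were then also kept out of the mural classes. Clusters other than these gave 472 cells of other types, 99 lymphatic, 216 endocardial and 170 proliferating ECs. Doublets were not removed. The automatic threshold of Scrublet (scanpy 1.11.5) called 0, 0, 1 and 0 cells and so did not work, and an alternative left out the highest scores (405, 358, 237 and 3391 cells).

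UMIs were summed per library and class and fitted with edgeR 4.0.16 in R 4.3.3 (TMM, filterByExpr, quasi-likelihood, Benjamini-Hochberg), with DESeq2 1.42.0 as an alternative. Fits of diet had diet as the only term, fits of class had the library as a block, and the interaction model had library, class and class by diet. Genes were named when they reached a mean of 10 CPM in a class, were called in a comparison, or belonged to a set of vascular channels, which gave 22 of the 38 members, of which 2 are not reported here and stand only in counts and sums. The members and lists were chosen with earlier results of these data known. Promoters and positions came from RefSeq and GENCODE for GRCm38. Intervals of ratios are 95% exact intervals and floors are 3 UMIs, both for counting error only. The fits were tested on simulated counts, drawn at the trended spread without a spread particular to each gene. Recovery in the real data may thus be lower than the shares given next. Of 2-fold changes in diet, 70% were recovered in capillary ECs (11946 genes), 48.8% in pericyte-like (1578 genes) and 23.3% in smooth muscle-like cells (2268 genes), and of 4-fold changes 95.8%, 100% and 86.5%. Alternatives changed the size factors, the tool, the low-count filter, the depth per cell, the hemoglobin filter, the treatment of cells with markers of both lineages and of doublets, the gate, the resolution and the blocks, and left out each library. Library totals in place of TMM and the addition of the shallow or of the mixed mural clusters were alternatives chosen after seeing the data.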

Additional observations from a re-analysis of the deposited data

Results flagged for a closer look

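The diet effect on Kcnj2, the strong inward rectifier, differed between smooth muscle-like cells and capillary ECs by -3.19 on the log2 scale (SE 0.73, adjusted p = 0.0304, edgeR, interaction term). The NC libraries stood at 50.3 and 137.4 CPM and the HFpEF libraries at 0 and 40.7 CPM in smooth muscle-like cells, against 1.85 and 2.51 and then 4.55 and 7.75 CPM in capillary ECs. The smooth muscle-like values come from 5, 27, 0 and 8 UMIs. The 5 endothelial markers summed to 362.4 and 132.3 CPM in the NC and to 168.7 and 285.2 CPM in the HFpEF sums of smooth muscle-like cells, and their part in this difference was not tested. The call was lost when any 1 of the libraries NC 1, NC 2, HFpEF 1 and HFpEF 2 was left out.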

How the results depend on the processing

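Of 829 recomputed values of single genes, 752 kept their direction and their side of the threshold, 39 lost a call, 15 gained one and 23 changed sign. A value was counted only where the gene was still tested and had an adjusted p. Calls lost because a gene fell below the filter, as with thinned cells, are therefore not among the 39. The 407 recomputed class differences come from 26 results chosen because they were called, and none changed sign. The 374 recomputed diet effects come from 24 results, none of them called in the main fit, and 23 changed sign while uncalled. That choice favors the class differences, so these counts do not compare the stability of class and diet results.

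Potassium channel genes called for diet in capillary ECs numbered 1 with DESeq2, 2 without the low-count filter, 2 with cells thinned to 1000 UMIs and 2 with a replicate block, against 0. The labels do not say what the library numbers stand for. Scarb1 was higher in number 1 than in number 2 under both diets, at 120.5 and 112.1 against 48.7 and 54.4 CPM in capillary ECs. The study reports lower Scarb1 in capillary ECs of mice homozygous for the floxed allele than of heterozygous ones under each diet. The order of the Scarb1 levels is that of a pairing by genotype, which the labels do not state and which was not tested. Over all genes the deviations of same-numbered libraries correlated at 0.064 in capillary ECs and between -0.068 and 0.025 in the other classes. Such a correlation over all genes cannot decide on a pairing by the genotype of a single gene. With the replicate block 0 members were called in the other 4 classes. For artery diet effects the count was 2 without the filter. For class it was 4 in artery ECs when thinned, 9 without the filter and 1 when thinned in vein ECs, and 15 and 1 in smooth muscle-like cells. In pericyte-like cells it was 11 without the filter, 3 when thinned, 13 with a per-cell marker gate and 12 with the mixed mural clusters added, and between the mural classes 6, 1, 5 and 7. For the interaction of artery ECs it was 3 without the filter and 1 without cells carrying markers of both lineages, and for that of pericyte-like cells 1 with the gate. For that of smooth muscle-like cells it was 0 instead of 1 under DESeq2, without the filter, when thinned, with hemoglobin-rich cells, without cells of both lineages, with the gate, at resolution 1.2, without the library block, and with the shallow or the mixed mural clusters added. Leaving out 1 library gave 0 to 1 calls for diet in capillary and in artery ECs and 0 in the other classes, 6 to 9 for artery, 4 to 5 for vein, 5 for pericyte-like and 5 to 12 for smooth muscle-like cells, 2 to 4 between the mural classes, and 0 to 2, 0 and 0 for the interactions of artery, pericyte-like and smooth muscle-like cells. The share of all genes called under each alternative is not given here, so these counts are not read as an excess of members. The cause of these moves was not tested.

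Diet effects that changed sign were, on the log2 scale, in capillary ECs Kcnj8 at -0.012 without cells of both lineages and Kcnk6 at -0.15 when thinned, -0.017 with hemoglobin-rich cells and -0.021 at resolution 1.2. In artery ECs it was Kcnn3 at 0.097 with hemoglobin-rich cells and 0.0090 without the highest Scrublet scores, in vein ECs Kcnj15 at 0.40 at resolution 1.2, and in pericyte-like cells Kcnj8 at 0.20 when thinned, 0.068 with the gate and 0.056 with the mixed clusters added. Leaving out 1 library turned the sign of further diet effects in capillary ECs, with ranges of -0.29 to 0.50 for Kcnj8, -0.24 to 0.26 for Kcnk6 and -0.14 to 0.21 for Kcnq1. In artery ECs the ranges were -0.49 to 0.32 for Kcnn3 and -0.026 to 0.17 for Kcnq1, and in vein ECs -0.63 to 0.67 for Kcnk6 and -0.77 to 1.03 for Kcnc2. They were -0.12 to 0.032 for Kcnj8 in pericyte-like cells and -0.55 to 1.37 for Kcne4 and -0.99 to 0.044 for Kcnmb1 in smooth muscle-like cells.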

Other observations

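Channel genes were also unevenly spread over the classes that were not among the 5 compared. In 99 lymphatic ECs Kcnn3, the small-conductance calcium-activated channel subunit, stood at 106.7, 228.1, 56.2 and 117.4 CPM in NC 1, NC 2, HFpEF 1 and HFpEF 2, and this class held 61 of its 201 UMIs. Kcna5, the leading gene of capillary ECs, had only 5 UMIs there. In 216 endocardial ECs the sodium-activated subunit Kcnt2 stood at 48.2, 93.8, 81.3 and 48.9 CPM, while 18593 capillary ECs held 0 of its UMIs. These values carry no test.

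The 1225 mural cells that also carried endothelial markers held 1597 of the 2567 Kcnj8 UMIs, at 234.0, 294.8, 368.7 and 222.5 CPM in the same order, together with Kcna5 at 138.3, 104.2, 82.1 and 79.2 CPM. They also held 24 of the 29 UMIs of Kcnj12, an inward rectifier. Of 135 Kcnn4 UMIs, 30 fell in the clusters of other cells, as did 34 of the 61 UMIs of Kcnab2, a cytoplasmic beta subunit.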
